A study of Mus musculus with 11 samples.

Results

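Chromatin accessibility was compared between reporter-intermediate, Ly6C- naive CD4 T cells (population C) and reporter-low, Ly6C+ naive CD4 T cells (population A). The comparison took the 3 libraries of C, from mice 1, 2 and 3, and the 2 libraries of A, from mice 1 and 3, which are 5 of the 11 libraries of the study. It covered all 45508 listed peaks, and no peak was chosen by its values. Every mouse, whichever population was sorted from it, carried the Tg(Nr4a1-EGFP)GY139Gsat transgene together with the Foxp3tm1Flv targeted mutation on the C57/BL6 background. The transgene makes green fluorescent protein under the control of Nr4a1, the gene of Nur77, and the Foxp3 allele carries a red reporter. Spleen and lymph node cells of untreated mice were sorted without stimulation as CD4+, Foxp3-RFP negative and CD44lo. C was Nur77-GFPint and Ly6Cneg, and A was Nur77-GFPlo and Ly6C+. The other populations were B (Nur77-GFPint, Ly6C+, 3 libraries) and D (Nur77-GFPhi, Ly6Cneg, 3 libraries). C therefore differs from A in both gates, and the reporter and Ly6C cannot be told apart in this comparison alone. Each library held 10000 cells, tagmented for 1 h at 37 °C. Ages were not given in the sources used here.

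Naive T cells receive weak, continuous signals through the T cell receptor from self peptides on major histocompatibility complex molecules, called tonic signalling. Nr4a1 is an immediate early gene that T cell receptor signalling switches on, so its reporter reads recent signalling, while Ly6C, a surface protein encoded in the Ly6 gene cluster, is found at lower levels on naive CD4 cells that receive stronger tonic signals. In ATAC-seq the transposase Tn5 inserts adapters into open DNA, so the number of reads in a peak reads how accessible that promoter or distal element is. The values below are rppm, reads scaled to a common total whose definition the deposited table does not give. In such bulk libraries a larger share of cells with an open element and a wider opening in each cell cannot be told apart.

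Most of what differed lay away from promoters, but 26 of the elements called higher in C held a promoter window of RefSeq (GRCm38.p6), 300 bases that span a start site. The windows of 3 genes are shown: Tnfrsf4, which encodes the costimulatory receptor OX40 and was called at its promoter, and Sh3gl3 and Dhrs3, which had 3 higher peaks each. The windows are chr4:156013445-156013744 (plus strand) for Tnfrsf4, chr7:82174546-82174845 (plus strand) for Sh3gl3 and chr4:144892577-144892876 (plus strand) for Dhrs3. Capitals mark matches on either strand to the letters searched: in Tnfrsf4 GAAANNGAA and TGGAAA, whose matches overlap, in Sh3gl3 TGGAAA and CAGCTG, and in Dhrs3 TGGAAA and GGGNGGG.
Tnfrsf4: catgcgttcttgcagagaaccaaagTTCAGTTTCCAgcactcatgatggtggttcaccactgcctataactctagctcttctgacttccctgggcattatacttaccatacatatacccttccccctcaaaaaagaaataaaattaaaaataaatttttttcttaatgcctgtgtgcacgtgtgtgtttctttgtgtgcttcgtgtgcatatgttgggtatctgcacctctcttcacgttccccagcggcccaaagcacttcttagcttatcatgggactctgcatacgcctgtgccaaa
Sh3gl3: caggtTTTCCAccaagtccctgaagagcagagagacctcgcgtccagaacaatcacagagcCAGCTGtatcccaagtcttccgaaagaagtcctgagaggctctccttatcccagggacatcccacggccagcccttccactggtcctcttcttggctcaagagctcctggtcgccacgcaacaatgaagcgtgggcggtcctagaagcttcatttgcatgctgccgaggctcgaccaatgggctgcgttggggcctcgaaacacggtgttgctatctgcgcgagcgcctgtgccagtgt
Dhrs3: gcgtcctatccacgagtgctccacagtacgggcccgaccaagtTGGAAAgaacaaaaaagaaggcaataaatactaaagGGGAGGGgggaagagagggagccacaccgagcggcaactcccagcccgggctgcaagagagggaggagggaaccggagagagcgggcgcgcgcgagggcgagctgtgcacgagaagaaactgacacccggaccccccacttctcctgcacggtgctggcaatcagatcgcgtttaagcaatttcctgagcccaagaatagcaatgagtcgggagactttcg

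All 3 windows held TGGAAA, the letters of an NFAT core. Over the 26 promoter windows that lay in higher peaks (an overlap of at least 150 bases, 1 window per peak), 8 (30.8%) held TGGAAA, against 16.2% of the 9492 windows that lay in any listed peak. CCGGAAG, an Ets core common in promoters, was in 0 of the 26 windows and in 18.5% of all windows, and CTTTGA (Tcf/Lef) was in 3.85% and 12.0%. Shares closer to each other were found for GGGNGGG (KLF/SP; 73.1% of the 26 and 68.3% of all), CAGCTG (15.4% and 14.3%), CAGGTG (23.1% and 17.8%), TGTGGT (Runx; 15.4% and 12.7%), CAGGAAG (Ets; 7.69% and 13.1%), GAAANNGAA (IRF; 11.5% and 7.09%), TGANTCA (AP-1; 7.69% and 4.78%) and GTAAACA (Fox; 3.85% and 2.45%). AAGGTCA (nuclear receptor) and GGGANTTTC (NF-kB) were in 0 of the 26, and in 2.74% and 0.927% of all windows. The median GC content was 64.2% in the 26 windows and 61.3% in all. With 26 windows, 1 window is 3.85%, and these shares are a description of letters with no test.

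The C libraries rested on totals of 5095885, 9724363 and 35244031 reads in mice 1, 2 and 3, and the A libraries on 9194084 and 9933354 reads in mice 1 and 3. A peak at 10 rppm therefore held 51, 97 and 352 reads in C, and 92 and 99 reads in A. Listed peaks took 93.5% to 94.3% of the total in C and 94.7% in A. The share of peak reads in promoters was 54.2% to 56.2% in C, and 55.2% and 56.7% in A. C held 206, 143 and 108 peaks under 1 rppm and A held 478 and 467, and the part of this in the results was not tested. Read depth differed most in mouse 3, whose C library is the deepest of the 5, and the libraries of 1 population came from separate mice.

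C differed from A mainly by gains at distal elements that were low in A. Limma on log2(rppm + 1), with all 11 libraries in the model and Benjamini-Hochberg adjustment over 45508 peaks, called 384 peaks (0.844% of those tested) at an adjusted p under 0.05. Of these, 342 (0.752%), nearest to 285 genes, were higher in C and 42 (0.0923%), nearest to 40 genes, were lower. No gene had peaks called in both directions by this test, and all listed peaks were nearest to 14922 genes. The change was a median of 1.02 log2 units at the higher peaks (0.56 to 2.25), with 180 of them at 1 or more, and a median of -0.85 at the lower peaks (-1.65 to -0.50), with 9 of them at -1 or less. The median over all peaks was 0.00. With the mouse as a block, which uses that mice 1 and 3 each gave both a C and an A library, the same model called 1590 peaks (3.49%), 1332 of them higher (2.93%) and 258 lower (0.567%), and all 384 peaks were among them. Cd44 then had peaks called in both directions, 2 higher and 1 lower. The balance of the calls moved with the setting: 89.1% of the calls were higher in C as deposited. After median-of-ratios scaling the share was 87.1%, and after quantile normalization, which called 73 higher and 20 lower peaks, 78.5%. With a pseudocount of 5 it was 73.3%, and after thinning the libraries to equal reads 100%.

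**Figure D1:**
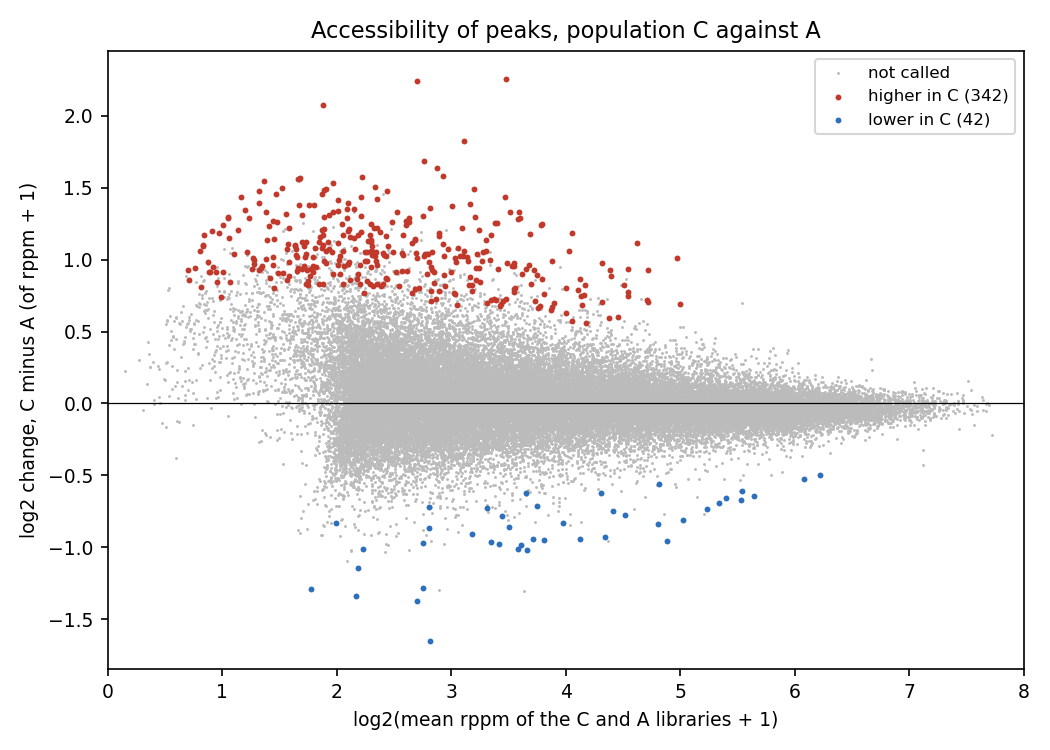
Each point is 1 of 45508 peaks. The horizontal axis is the log2 of the mean rppm over the 5 C and A libraries plus 1, the vertical axis the log2 change of C minus A from limma. The 342 peaks higher in C (red) are spread over low and middle levels and outnumber the 42 lower peaks (blue), and the median of all peaks is at 0.00.

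These counts rest on both A libraries. Without A of mouse 1 the same test called 4 peaks, and without A of mouse 3 it called 10, all higher in C. Without the C library of mouse 1, 2 or 3 the counts were 180, 112 and 80. Without mouse 3 altogether, which leaves A with 1 library, limma called 0 peaks (1205 at an unadjusted p under 0.05, against 3913 with all libraries). On whole reads recovered from the rppm steps, edgeR's quasi-likelihood test called 631 peaks (510 higher and 121 lower) and DESeq2 called 467 (373 and 94), and after thinning every library to the 2597176 reads of the shallowest one of the study, limma called 20.

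The differences of C minus A can be formed separately in mouse 1 and in mouse 3, with no library in common. Across all 45508 peaks the 2 differences correlated at r = 0.40. Above a mean of 5 rppm (35075 peaks) r was 0.36, and above 20 rppm (14072 peaks) it was 0.19. These are correlations across peaks, which are not independent replicates, and the libraries of 1 mouse share its animal. The peaks called from these same libraries show the same sign in both mice by selection.

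**Figure D2:**
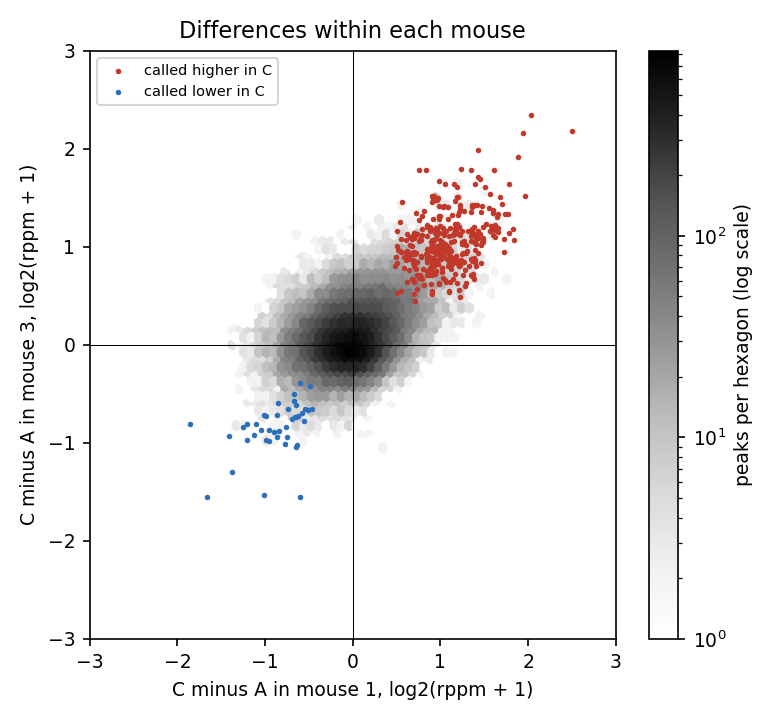
Each axis is the difference of log2(rppm + 1), C minus A, in 1 mouse: mouse 1 horizontally and mouse 3 vertically. Grey hexagons count all 45508 peaks, and the called peaks (red higher, blue lower) lie away from 0 in both mice, as their selection requires. The whole cloud is tilted, with r = 0.40.

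The higher peaks were weak elements. Their median level was 5.33 rppm in C, against 2.04 rppm in A, and both A libraries were under 1 rppm at 69 of the 342 (20.2%), against 359 of all 45508 peaks (0.789%). The lower peaks had a median of 8.94 rppm in C, against 16.8 rppm in A. All peaks had medians of 9.96 and 9.65 rppm. By population, the higher peaks stood at 2.04 rppm in A, 3.53 in B, 5.33 in C and 10.6 in D, and the lower peaks at 16.8, 13.8, 8.94 and 7.50 rppm. B and C have the same reporter gate and differ in Ly6C. The C and A values among these medians are the ones that chose the peaks. A low A level at the higher peaks, and their share under 1 rppm in A, are therefore part of the choice. B and D did not enter the difference but share the model and the mice. A choice by the gap of C and A also favours B levels between them. The median width was 800 bp at higher, 842.5 bp at lower and 761 bp at all peaks.

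The 10 gains named here include peaks near Bckdhb, Grik4 and Slc22a2. They are those with the largest change among called peaks that averaged 5 rppm or more in the population where they were higher, with no overlap between the libraries, 1 per gene with a proper symbol, so the gap between the groups is part of the choice. The condition on the symbol left out the largest change of all, 2.25 at a peak of the predicted gene Gm29687. Values are given in mouse order. The largest of the 10 was an intergenic peak 31.8 kb upstream of Bckdhb, which encodes a subunit of the branched-chain keto acid dehydrogenase (chr9:83892815-83893774, mm10). It had 10.8, 7.20 and 7.63 rppm in C, against 1.09 and 0.906 rppm in A. The lowest C library was well above both A libraries, and limma gave a log2 change of 2.24 ± 0.24 (SE, adjusted p = 0.0028). A peak in intron 1 of Grik4, a kainate-type glutamate receptor subunit (chr9:42838029-42839239), had 12.4, 9.77 and 11.2 rppm in C, against 2.61 and 2.22 rppm in A. Its change was 1.82 ± 0.18 (adjusted p = 0.00238), and it was the only one of the 10 that limma still called without A of mouse 1 (adjusted p = 0.0353) and also without A of mouse 3 (0.0476).

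A further element lay in intron 8 of Slc22a2, an organic cation transporter (chr17:12614482-12615808). It had 8.44, 8.02 and 8.68 rppm in C, against 1.74 and 2.11 rppm in A. Its C libraries were nearly level, and the change was 1.68 ± 0.17 (SE, adjusted p = 0.00238).

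At Farsb, a subunit of phenylalanyl-tRNA synthetase, the peak in intron 17 (chr1:78422376-78423199) had 5.89, 3.91 and 6.21 rppm in C, against 0.761 and 1.51 rppm in A. C of mouse 2 was the lowest of its group but still above A (1.57 ± 0.27 SE, adjusted p = 0.0211). The peak nearest to Pgam5, a mitochondrial phosphatase, lies at the transcript end of Pxmp2 (chr5:110274048-110274659). It had 5.10, 6.38 and 5.96 rppm in C, against 1.20 and 1.61 rppm in A, and its change was 1.50 ± 0.19 (adjusted p = 0.00517). Dok2 encodes an adaptor that restrains signalling below tyrosine kinases in lymphocytes. The intergenic peak 24.4 kb from its start (chr14:70798239-70799240) had 11.8, 10.2 and 12.1 rppm in C, against 4.02 and 2.82 rppm in A (1.49 ± 0.23 SE, adjusted p = 0.0117).

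A further 3 of the 10 were intronic. Litaf, a protein of late endosomes, had 4.12, 7.20 and 4.31 rppm in C, against 1.63 and 0.906 rppm in A, at a peak in intron 1 (chr16:10975996-10976553; 1.44 ± 0.23 SE, adjusted p = 0.0135). C of mouse 2 was the highest library there. Pkp4, an armadillo-repeat protein of cell junctions, had 7.26, 5.25 and 4.97 rppm in C, against 1.63 and 1.41 rppm in A, in intron 2 (chr2:59244418-59245405; 1.42 ± 0.19, adjusted p = 0.00716). The peak assigned to Heg1, a transmembrane receptor studied in endothelium, lies in intron 6 of Slc12a8 (chr16:33606591-33607523). It had 12.6, 8.43 and 11.8 rppm in C, against 3.59 and 3.42 rppm in A (1.39 ± 0.23, adjusted p = 0.0156). Of these 10 peaks, 1 was still called without A of mouse 1 (adjusted p 0.0353 to 0.259) and 2, Grik4 and Slc22a2, without A of mouse 3 (0.0353 to 0.23). Farsb lost its call without C of mouse 1 (0.0606), and Farsb, Dok2 and Heg1 lost theirs without C of mouse 3 (0.0546 to 0.0876). None of these 10 changed direction in any alternative run.

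The 10 lower peaks chosen by the same rule, with the 5 rppm met in A, had changes from -1.65 to -0.98. The largest was in intron 3 of Rab11fip2, an effector of recycling endosomes (chr19:59929693-59930333). It had 3.14, 2.57 and 2.67 rppm in C, against 12.1 and 9.77 rppm in A. The C libraries lay close together and far below both A libraries, with a log2 change of -1.65 ± 0.22 (SE, adjusted p = 0.00716). A peak 22.2 kb upstream of Mocs1, an enzyme of molybdenum cofactor synthesis (chr17:49405832-49406508), had 3.34, 2.78 and 2.84 rppm in C, against 10.2 and 8.46 rppm in A (-1.37 ± 0.23, adjusted p = 0.0183). The intergenic peak 953.5 kb from Trps1, a GATA-type zinc finger repressor (chr15:49935238-49935864), had 4.91, 2.16 and 3.01 rppm in C, against 7.94 and 10.8 rppm in A (-1.28 ± 0.25, adjusted p = 0.0313). Here C of mouse 1 was the highest of its group.

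A stronger lower element lay in intron 1 of Cyb5b, the outer mitochondrial membrane cytochrome b5 (chr8:107164098-107165154). It had 7.85, 7.20 and 7.60 rppm in C, against 16.5 and 15.9 rppm in A, with all C libraries below both A libraries (-1.01 ± 0.21 SE, adjusted p = 0.0455). The peak assigned to Tubb2a, a beta tubulin, lies in intron 3 of the noncoding gene 4930447K03Rik (chr13:34090283-34090958). It had 7.26, 7.30 and 9.45 rppm in C, against 16.1 and 18.1 rppm in A (-1.01 ± 0.18, adjusted p = 0.0203). The other 5, at Glrp1, Atxn10, Neto2 (an auxiliary subunit of kainate receptors), Gabbr2 (a GABA receptor subunit) and the 3′ UTR of Fam78a, changed by -1.34 to -0.98 (adjusted p 0.0229 to 0.0468). Without A of mouse 1 or without A of mouse 3, none of the 10 was called (adjusted p 0.113 to 0.389 and 0.0757 to 0.437). Leaving out C of mouse 1, of mouse 2 or of mouse 3 left calls at 4, 1 and 4 of them.

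**Figure D3:**
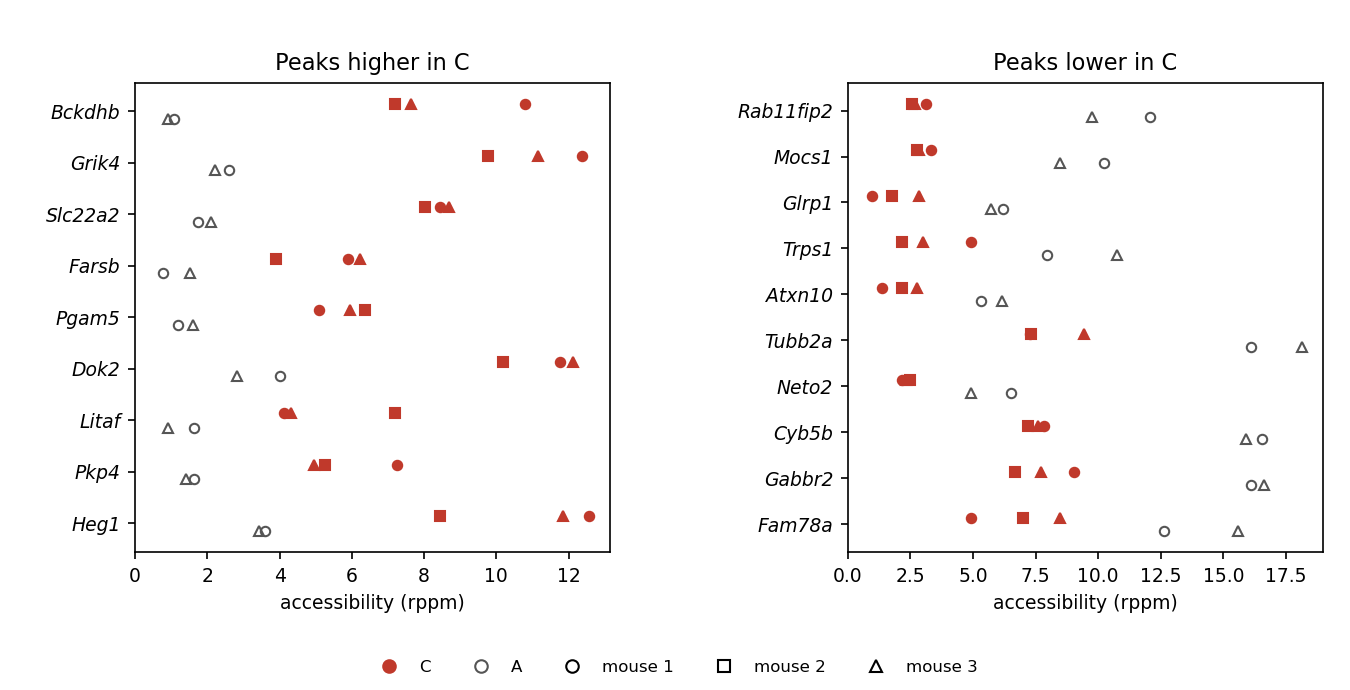
Accessibility in rppm of 9 of the 10 higher (left) and the 10 lower (right) peaks in each C library (filled red, upper points of each row) and A library (open grey, lower points), with the marker shape giving the mouse. The C and A points do not overlap in any row, which was a condition of the choice, and Bckdhb and Rab11fip2 have the largest changes (2.24 and -1.65).

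Gains near genes that T cell receptor signalling induces included costimulatory and inhibitory receptors. Of the 172 peaks near these 24 genes, 8 were higher (4.65%, against 0.752% of all peaks) and 1 was lower, and with the mouse block 24 (13.95%, against 2.93%) and 3. The median change over the 172 peaks was 0.08, against 0.00 over all. The higher peaks were at Cd5 and Cd6, inhibitory receptors of the T cell receptor, at Cd83, a surface activation marker, at Icos and Tnfrsf4, costimulatory receptors, and at Nr4a3, a nuclear receptor related to Nr4a1. At the Tnfrsf4 promoter (chr4:156013166-156014264), the window shown above, the level was 12.2, 13.4 and 12.3 rppm in C, against 4.02 and 5.44 rppm in A. All C libraries were above both A libraries there, as at each of the 342 higher peaks. Over all 45508 peaks, C and A did not overlap, in either direction, at 11096. The change at the Tnfrsf4 promoter was 1.26 ± 0.15 (SE, adjusted p = 0.00503 with limma). An element in intron 1 of Cd5 (chr19:10732876-10733145) had 5.50, 5.14 and 4.63 rppm in C, against 1.41 and 1.51 rppm in A (1.30 ± 0.18, adjusted p = 0.00716). The lower peak lay 6.98 kb upstream of Il2ra, the interleukin 2 receptor alpha chain (chr2:11634975-11636654), with 20.4, 21.1 and 19.6 rppm in C, against 37.4 and 36.7 rppm in A (-0.84 ± 0.13, adjusted p = 0.0116). Without A of mouse 1 no peak of this list was called (Tnfrsf4 at 0.0836, Cd5 at 0.108, Il2ra at 0.152), and without A of mouse 3 only the Tnfrsf4 promoter was (0.0353). Leaving out C of mouse 1, 2 or 3 left 5, 3 and 3 higher peaks.

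Negative regulators of activation had called peaks at 8 of 38 genes. Of 339 peaks near them, 10 were higher (2.95%, against 0.752% of all peaks) and 0 lower, with 28 (8.26%, against 2.93%) and 3 under the mouse block, and a median change of 0.07. Of all calls 89.1% were higher, so nothing is read from the direction. edgeR called 12 higher and 0 lower, and DESeq2 7 and 0. The genes were Cd200, Ctla4, Dusp1, Entpd1, Ndrg1, Nt5e, Rasa2 and Tnfaip3. Ndrg1, known from anergic T cells, had 3 higher peaks of 13. The one with the smallest p, 28.9 kb upstream (chr15:66998045-66998931), had 3.73, 3.50 and 3.24 rppm in C, against 0.653 and 0.805 rppm in A (1.38 ± 0.17, adjusted p = 0.00503). Near Dusp1, a phosphatase of MAP kinases, a peak 23.5 kb upstream (chr17:26531453-26532570) had 9.42, 10.4 and 9.53 rppm in C, against 3.92 and 4.73 rppm in A (1.02 ± 0.15, adjusted p = 0.00971). In intron 3 of Ctla4, the inhibitory receptor that competes with Cd28 (chr1:60913269-60913747), the values were 6.28, 6.68 and 6.50 rppm in C, against 2.18 and 3.22 rppm in A (1.03 ± 0.16, adjusted p = 0.0137). None of the list's peaks was called without A of mouse 1 or without A of mouse 3, and 3, 2 and 4 were called without C of mouse 1, 2 or 3.

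Follicular helper genes had 1 higher peak each at 6 of 14 genes. Of their 165 peaks, 6 were higher (3.64%, against 0.752% of all peaks) and 0 lower, with 15 (9.09%, against 2.93%) and 0 under the block and a median of 0.12. They lay at Bcl6, the factor that defines these cells, and at Icos, Il21, Maf, Tox and Tox2. The Bcl6 peak 8.60 kb upstream (chr16:23997151-23997754) had 7.07, 5.86 and 6.84 rppm in C, against 2.61 and 1.51 rppm in A (1.33 ± 0.22 SE, adjusted p = 0.0157). A peak 308.7 kb from Maf, a factor that drives interleukin 21 and interleukin 10 genes (chr8:115397728-115398616), had 18.25, 11.9 and 13.8 rppm in C, against 6.31 and 4.53 rppm in A (1.28 ± 0.22, adjusted p = 0.0213). C of mouse 1 was the highest library at Maf. Of 123 peaks near 25 effector and memory genes, 6 were higher (4.88%, against 0.752% of all peaks) and 0 lower, at Ccl5, Cd44, Ifng and Il2rb. The block gave 9 higher (7.32%, against 2.93%) and 1 lower (0.567% of all peaks). The Ifng peak 19.4 kb from the start (chr10:118460050-118460769) had 3.34, 4.01 and 3.60 rppm in C, against 1.09 and 1.31 rppm in A (1.08 ± 0.16, adjusted p = 0.00964). The Il2rb promoter, of the interleukin 2 and 15 receptor beta chain (chr15:78494657-78495533), had 18.4, 17.3 and 19.0 rppm in C, against 11.2 and 8.96 rppm in A (0.80 ± 0.13, adjusted p = 0.0161). For the lower direction edgeR and DESeq2 also called 0 peaks in both groups, against 121 and 94 of all 45508. Limma called 0.0923% of all peaks lower, so 0 in lists of this size is near that share. Nothing is read from the lack of lower calls. Among the gains, DESeq2 did not call the peaks at Il21 (adjusted p = 0.0848) and Tox (0.114) or the Cd44 peak 80.1 kb upstream (0.0958). edgeR did not call the Tox peak (adjusted p = 0.0628). Without A of mouse 1 or of mouse 3 neither group had a called peak, and without C of mouse 1, 2 or 3 each had 2, 2 and 1.

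Regulatory T cell genes were followed because the gate removes cells with the Foxp3 reporter. Of their 90 peaks, 4 were higher (4.44%, against 0.752% of all peaks), at Ctla4, Ikzf2, Itgb8 and Tnfrsf1b. At Il2ra 1 was lower, as were 0.0923% of all peaks. The Ctla4 and Il2ra calls are those already counted above, since the lists share genes. The block gave 7 higher (7.78%, against 2.93%) and 2 lower (0.567% of all peaks), and the median over the 90 peaks was 0.17. Their summed level was 1230 to 1327 rppm in C and 1152 to 1197 rppm in A. The single Foxp3 peak had 4.12, 3.50 and 5.02 rppm in C, against 4.35 and 3.12 rppm in A, so the groups overlapped (log2 difference 0.14, adjusted p = 1.00; -0.16 without mouse 3 and -0.05 without A of mouse 3). The part of such cells in the differences was not tested. An element in intron 8 of Tnfrsf1b, the second receptor of tumour necrosis factor (chr4:145221206-145222512), had 10.6, 9.67 and 12.8 rppm in C, against 5.00 and 5.03 rppm in A (0.99 ± 0.14, adjusted p = 0.00957). No peak of the list was called without A of mouse 1 or of mouse 3 (Tnfrsf1b at 0.117 and 0.144), and without C of mouse 1, 2 or 3 the list had 2, 1 and 1 higher peaks and 1, 1 and 0 lower ones.

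Of the lists, 3 of T cell state and signalling had no peak called by limma, which called 0.844% of all peaks. In the lists of 79 and 141 peaks, 0 calls is near that share and is not read as a result about their genes. Near 20 naive homing and quiescence genes, limma called 0 of 485 peaks (42 at an unadjusted p under 0.05, against 3913 of all 45508). No absence is read from this 0 either. The block called 8 higher (1.65%, against 2.93% of all peaks) and 1 lower. edgeR and DESeq2 each called 2 higher and 1 lower, against 510 and 121 of all peaks with edgeR and 373 and 94 with DESeq2. The closest were an element in an intron of Foxp1, a keeper of quiescence, with 39.3, 40.3 and 39.4 rppm in C, against 29.0 and 28.6 rppm in A (0.45, adjusted p = 0.0549, block 0.0123), and one near Btg1, an antiproliferative gene, with 16.3, 16.0 and 13.3 rppm in C, against 9.35 and 6.64 rppm in A (0.86, adjusted p = 0.0551, block 0.00386). Near 28 genes of the type I interferon response, 0 of 79 peaks were called by limma (2 at an unadjusted p under 0.05), by the block, by edgeR or by DESeq2, and the median was -0.04. Near the AP-1, NFAT and NF-kB factor genes, 0 of 141 peaks were called by limma (12 at an unadjusted p under 0.05), edgeR or DESeq2. With the block 4 were higher (2.84%, against 2.93% of all peaks), at Bach1, Jund and Nfkb1. Thymocyte and recent emigrant genes had 2 called peaks, both higher, of 196 (1.02%, near the 0.752% of all peaks), at Bcl11b and Tox. The block gave 8 higher (4.08%, against 2.93%) and 1 lower, edgeR 1 and 1, and DESeq2 0 and 0. Leaving out any 1 of the 5 libraries ended both calls.

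Core T cell identity genes had 3 higher peaks and 0 lower of 279 (1.08%, near the 0.752% of all peaks), at Bcl11b, Fyn and Runx1. The block gave 6 higher (2.15%, below the 2.93% of all peaks) and 3 lower, edgeR 3 and 0, and DESeq2 2 and 0. Runx1, a factor of the T lineage, had 14.5, 13.4 and 12.7 rppm in C, against 6.96 and 6.04 rppm in A, at a peak 191.2 kb upstream (chr16:93016873-93017708; 0.95 ± 0.13 SE, adjusted p = 0.00812). Fyn encodes a kinase of proximal receptor signalling, and a peak in its intron 2 (chr10:39434791-39435522) had 4.12, 4.01 and 4.23 rppm in C, against 1.63 and 1.41 rppm in A (1.02 ± 0.21, adjusted p = 0.0455). Both calls were lost without A of mouse 1 (0.0836 and 0.258) and without A of mouse 3 (0.17 and 0.423), and without C of mouse 1, 2 or 3 the list had 1 called peak each.

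Markers of other lineages gave no call with limma, which called 0 of 28 peaks near B cell genes, 0 of 45 near myeloid and dendritic cell genes and 0 of 47 near CD8 T and NK cell genes (1, 3 and 3 at an unadjusted p under 0.05), and edgeR and DESeq2 also called 0 in each. Limma called 0.844% of all peaks, so 0 calls in lists this small is near that share, and no absence is read from it. The block called 1 lower peak at Fcgr1 and 1 higher at Cd8a (0.567% and 2.93% of all peaks). Of 18 B cell genes 8 had no listed peak, among them Ms4a1 and Pax5. The summed levels were 317.9 to 357.0 rppm in C and 352.5 to 356.1 rppm in A for B cell genes, 438.0 to 513.4 and 491.7 to 510.2 rppm for myeloid genes, and 740.5 to 779.4 and 786.7 to 798.8 rppm for CD8 and NK genes. Defining T cell genes such as Cd3e had peaks, while Trac, Trbc1 and Trbc2 had none listed.

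Of the genes used in the sort, Ly6c1 had 1 called loss and Cd44 had 2 called gains. None of the 8 Nr4a1 peaks was called by limma, edgeR or DESeq2, but 4 had an unadjusted p under 0.05 with each (3913 of all 45508 with limma), and 3 of 8 were higher with the block, against 2.93% of all peaks. The Nr4a1 peak with the smallest p, 10.6 kb upstream, had 7.07, 5.04 and 8.03 rppm in C, against 3.15 and 5.03 rppm in A (0.60, adjusted p = 0.304, block 0.0426). C of mouse 2 and A of mouse 3 were level there. Every mouse carried the Nr4a1-EGFP transgene, which may share reads with this gene, and its part in these values was not tested. At Ly6c1, one of the closely similar genes that encode Ly6C and may share reads, 1 of 7 peaks was lower. It lies 14.9 kb from the start (chr15:75033381-75034218) and had 10.8, 12.1 and 10.1 rppm in C, against 21.0 and 19.6 rppm in A (-0.83 ± 0.14 SE, adjusted p = 0.0162). The 41 peaks of the Ly6 cluster had a median of -0.19 and summed to 403.1 to 439.9 rppm in C, against 475.5 to 478.4 rppm in A. Of the 41, 1 was lower by limma and 4 with the block, against 0.0923% and 0.567% of all peaks. At Cd44 the block called 2 higher peaks and 1 lower, against 2.93% and 0.567% of all peaks, and DESeq2 called 1 higher. Limma called 2 of the 15 Cd44 peaks higher. One, 80.1 kb upstream (chr2:102981356-102982154), had 1.77, 1.13 and 1.16 rppm in C, against 0.326 and 0.101 rppm in A (0.95 ± 0.19, adjusted p = 0.0371), which are single reads to a few reads in A. The other (chr2:102956648-102957396) had 1.57, 1.65 and 2.33 rppm in C, against 0.0 and 0.503 rppm in A (1.21 ± 0.26, adjusted p = 0.0468). The Ly6c1 call was lost without A of mouse 1 (0.213), A of mouse 3 (0.183) or C of mouse 3 (0.071), and both Cd44 calls without any 1 of the 5 libraries (0.0764 to 0.44 for the first and 0.086 to 0.485 for the other, chosen for the text after its values were seen). None of the 3 Cd4 peaks (0 at an unadjusted p under 0.05), the 5 Ly6c2 peaks (1 by limma) or the single Cd8a peak was called by limma, edgeR or DESeq2 (Cd8a adjusted p = 0.197 with limma, 0.0218 with the block).

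Some genes had several higher peaks. Of the 285 genes, 38 had at least 2 higher peaks and 9 had at least 3, while 2 of 40 genes had 2 lower peaks each. This grouping was not compared with that of all peaks. The genes with the most were Gm29687 (9 of 15 peaks), A430093F15Rik (6 of 16), Bcl2l14 (4 of 12), Gm17746 (3 of 22), Ndrg1 (3 of 13), Sh3gl3 (3 of 4), Dhrs3 (3 of 7) and Nab1 (3 of 6). Sh3gl3 encodes an endophilin of membrane curvature, Dhrs3 a retinal reductase and Nab1 a corepressor of Egr factors. At the Sh3gl3 start (chr7:82174544-82175532), the level was 3.53, 3.81 and 2.78 rppm in C, against 0.435 and 0.503 rppm in A (1.57 ± 0.21 SE, adjusted p = 0.00716). At the Dhrs3 promoter (chr4:144892189-144892992), it was 8.44, 11.0 and 10.5 rppm in C, against 5.44 and 4.93 rppm in A (0.82 ± 0.17, adjusted p = 0.0435). Neither call held without A of mouse 1 (0.109 and 0.244) or A of mouse 3 (0.103 and 0.422).

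Runs of at least 4 higher peaks with gaps of at most 500 kb, a gap chosen after the values were seen, numbered 10 and held 61 peaks, with 0 lower peaks inside them. Lower peaks were 0.0923% of all peaks, so 0 in the runs is near that share and nothing is read from it. The longest held 13 higher peaks of 41 over 1263.4 kb of chromosome 12 around Gm17746, Gm29687 and Rnf144a, the only protein-coding gene inside. Their summed level was 117.5 ± 8.44 rppm in C (SD, n = 3), against 41.5 ± 2.94 rppm in A (n = 2). It included the 1 peak that limma called in C against B (chr12:25600650-25601483), with 4.51, 4.42 and 3.92 rppm in C, against 0.435 and 0.101 rppm in A (2.07 ± 0.19, adjusted p = 0.00161, and 0.0173 and 0.0353 without A of mouse 1 or 3). The next in number of peaks was at Cd5 and Cd6 on chromosome 19, with 11 of 32 peaks over 124.8 kb and 142.6 ± 6.54 rppm in C, against 66.6 ± 7.19 rppm in A, and all 32 changes were above 0. Of the 61 peaks, 2 were called without A of mouse 1, 3 without A of mouse 3, and 30, 25 and 19 without C of mouse 1, 2 or 3.

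**Figure D4:**
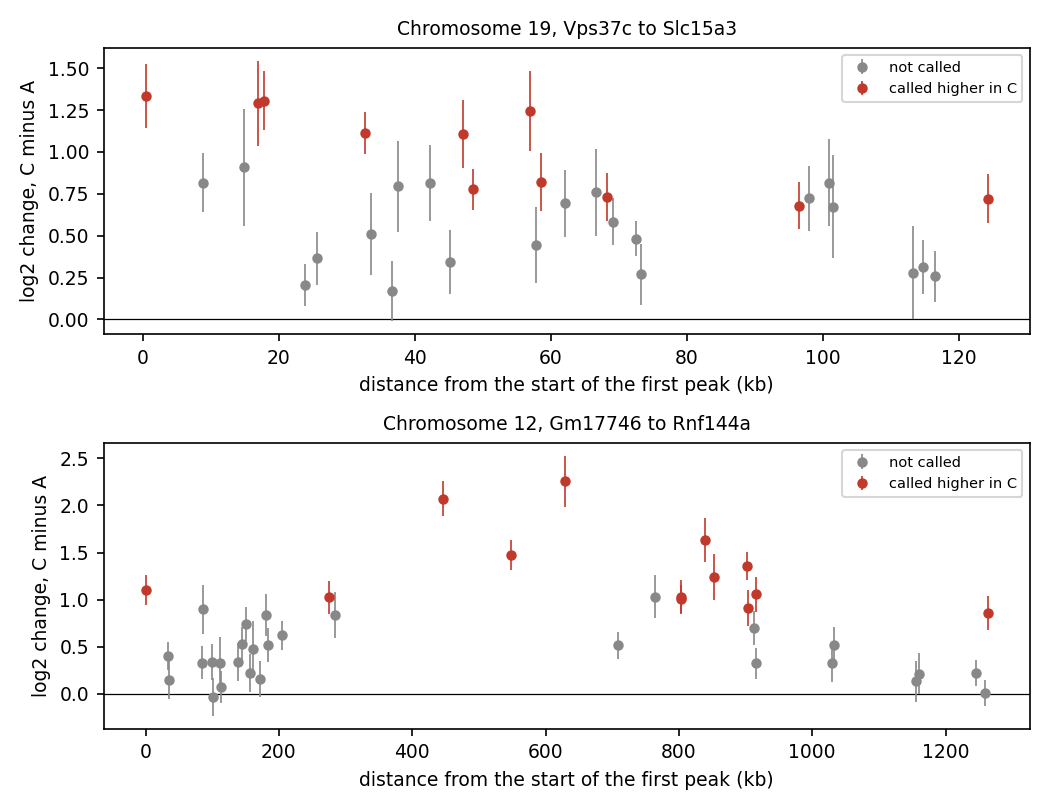
The vertical axis is the log2 change of C minus A with its standard error and the horizontal axis the distance in kb from the start of the first peak of the run on chromosome 19 (upper) and chromosome 12 (lower). Called peaks (red) lie between uncalled ones (grey). All 32 changes on chromosome 19 and 40 of 41 on chromosome 12 are above 0.

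Smaller runs lay at other genes. On chromosome 4, all 4 listed peaks within 90.0 kb, in introns of Hivep3 with 2 of them assigned to Edn2, were higher, with 45.9, 45.2 and 49.3 rppm in C, against 19.6 and 23.0 rppm in A. Hivep3 encodes a large zinc finger protein, and C libraries again lay close together. Another run on chromosome 4 took 5 of 16 peaks at Dhrs3, Vps13d and Tnfrsf1b over 330.3 kb and summed to 40.6, 36.5 and 40.9 rppm in C, against 17.2 and 14.8 rppm in A. On chromosome 6, 6 of 29 peaks from Etv6, an Ets-family repressor, over Bcl2l14 to Borcs5 summed to 44.4, 41.7 and 43.3 rppm in C, against 21.9 and 18.5 rppm in A. Of the others, 3 runs took 4 of 16 peaks at Cd83 (chromosome 13), 5 of 34 from Slc12a8 to Umps (chromosome 16) and 4 of 6 from Acvr1 to Pkp4 (chromosome 2). Their summed levels were 30.1 to 47.9 rppm on average in C, against 13.2 to 21.1 rppm in A. Sums over peaks chosen as higher are a description of the choice, and the leave-out counts of the 61 peaks apply to them: 2 and 3 without A of mouse 1 or 3, and 30, 25 and 19 without C of mouse 1, 2 or 3.

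**Figure D5:**
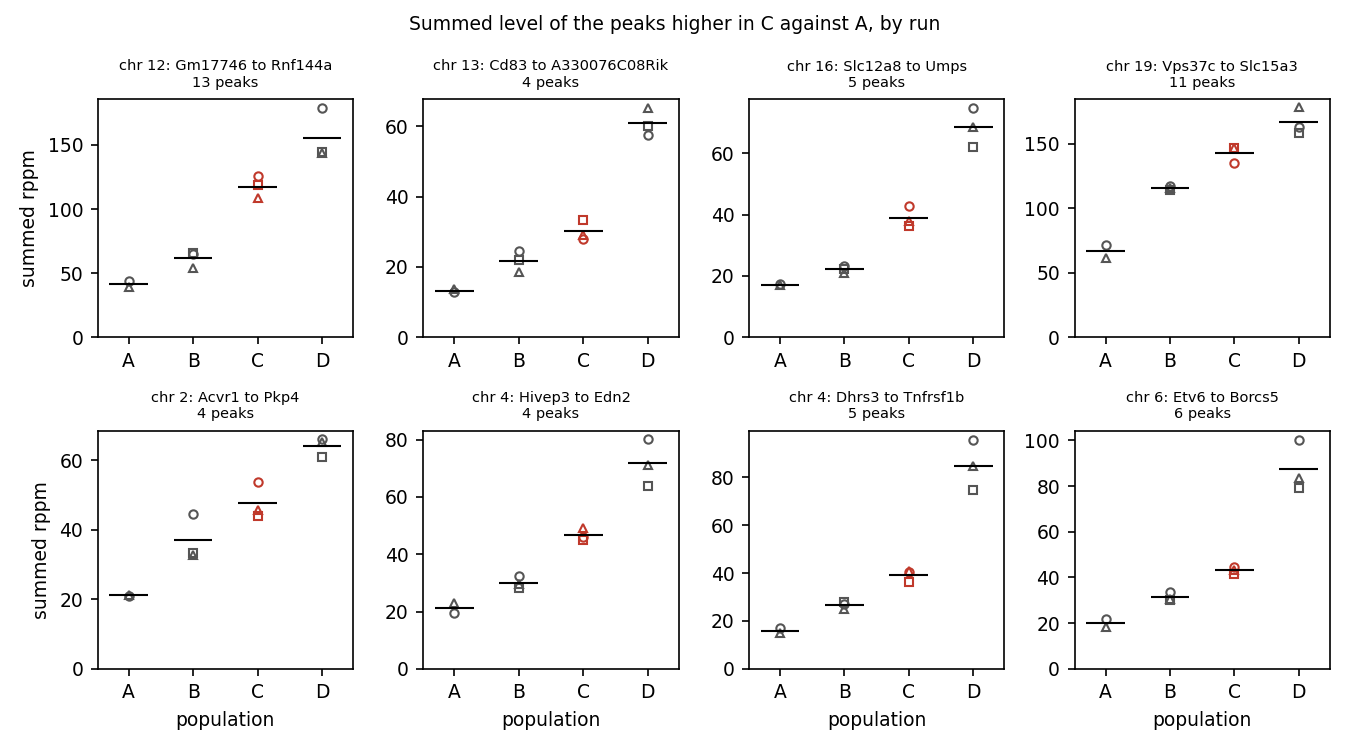
Each panel is 1 of 8 of the 10 runs and shows the summed rppm of its higher peaks in every library of populations A, B, C and D, with the mouse as marker shape and the population mean as a line. C (red) was above both A libraries in each panel by selection. On average B lies between A and C in all 8, which a choice of peaks by the gap of C and A favours, and D lies above C.

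Population B shares the reporter gate with C and the Ly6C gate with A, and its median levels at the called peaks lay between theirs. The choice of these peaks by the gap of C and A favours such a place for B. At the longest run B had 61.7 ± 6.40 rppm and D 155.5 ± 20.0 rppm, and at Cd5 and Cd6 B had 115.6 ± 1.64 and D 166.6 ± 10.5 rppm (SD, n = 3 each). Limma called 1 peak in C against B (0.0022%; edgeR 71, DESeq2 86, block 88), 0 in B against A (0.0%; 1218 at an unadjusted p under 0.05, edgeR 0, DESeq2 8, block 27) and 2730 in D against C (6.0%). These contrasts share libraries with C against A, so only single values are set beside it. At Bckdhb D stood 1.32 above C (adjusted p = 0.00213) and C 1.05 above B (0.21). At the Tnfrsf4 promoter D stood 0.25 above C (0.402) and C 0.93 above B (0.07). At Litaf and Pkp4 D and C differed by 0.02 (0.988) and 0.01 (0.994), and at Ndrg1 D stood 1.93 above C (9.11e-06).

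Called peaks were distal. Of the higher peaks 29 (8.48%) lay within 1 kb of a start site, and of the lower peaks 1 (2.38%), against 27.0% of the 45124 uncalled peaks. Over 100 kb away were 17.5% and 16.7%, against 5.85%, and at 10 to 100 kb 58.5% and 64.3%, against 43.2%. With the mouse block the shares within 1 kb were 6.08% of higher and 9.30% of lower peaks. By annotation, 44.15% of the higher and 42.9% of the lower peaks were intronic (41.1% of uncalled peaks), and 43.6% and 47.6% were intergenic (32.2%). The higher peaks were also weaker than all peaks (medians of 5.33 and 9.96 rppm in C), and the part of level in these shares was not tested. By chromosome, 1.48% of peaks on chromosome 16 and 1.33% on chromosome 12 were higher, against 0.219% on chromosome 11 and 1 of 1008 (0.0992%) on X.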

How the data were processed

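The deposited table gives 45508 peaks on mm10 with the authors' annotation and nearest gene, and 1 value in RPM per library, called rppm per the file headers. Per the submitters' processing notes Bowtie and MACS2 were used. Versions, roles, read filters, pooling for peak calling and the RPM denominator are not given in the sources used here. All values were whole multiples of 1 step within 6e-04 rppm in at least 99.998% of cases, so whole reads and totals were recovered, with the precision given by the totals in the report.

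Limma 3.58.1 (R 4.3.3) was fitted to log2(rppm + 1) over 11 libraries with 1 mean per population and a variance trend. Tests were two-sided, with Benjamini-Hochberg adjustment within a contrast and a threshold of 0.05. A log2 change of rppm + 1 understates the change of low peaks. Alternatives were pseudocounts of 0.25 and 5, a mean of at least 5 rppm, 2 other scalings, the mouse block, fewer libraries, thinning, edgeR 4.0.16 and DESeq2 1.42.0. The scripts were tested on simulated data. The labels give each library's mouse, and same-mouse libraries deviated together from their population means (15 pairs, r = 0.18 to 0.56, against -0.43 to 0.2 in 30 pairs of different mice), so block values are given. Deviations within a population cancel, so positive values within mice lower those between mice, and the 30 pairs are no separate reference. Changes, standard errors and leave-out runs come from the model without the block unless the block is named.

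Named peaks were the 10 higher and 10 lower peaks described in the report, up to 3 peaks with the smallest p per gene list, the sort genes, and the 8 genes with the most called peaks in each direction. Members of runs and the list genes named in counts were added after their values were seen. Some named genes and runs are not reported here. The comparison and the 14 gene lists were chosen with earlier results of these data known. The lists overlap, at Ctla4, Il2ra, Icos, Tox and Bcl11b among others, so the same call can count in several shares. A peak joins a gene by proximity, which need not be the gene it acts on. A planned search for motifs and GC content in all peak windows was limited to RefSeq promoter windows, because no genome was used here. Entrez identifiers of 45447 peaks (99.9%) matched the reference, and 15 peaks had no gene.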

Additional observations from a re-analysis of the deposited data

How the results depend on the processing

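Higher calls outnumbered lower ones in each setting that made calls, but their number depended on the libraries and the scale. Limma called 384 peaks (342 higher in C and 42 lower). Leaving out 1 library gave 4 to 180 calls (4 to 151 higher, 0 to 29 lower): 4 without A of mouse 1, 10 without A of mouse 3, and 180, 112 and 80 without C of mouse 1, 2 or 3. Where A had 1 library left, that library was assumed to vary like the others. Without mouse 3 there were 0 calls in either direction (1205 peaks at an unadjusted p under 0.05). Of the other settings, a pseudocount of 5 gave 105 (77 higher), a minimum mean of 5 rppm 158 (133 higher, 25 lower), quantile normalization 93 (73 higher, 20 lower), only the C and A libraries 234 (206 higher), and thinning to 2597176 reads 20 (20 higher, 0 lower). edgeR gave 631, with 121 lower, and DESeq2 94 lower peaks. The causes were not tested, beyond fewer peaks or libraries where the setting removes them.

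With the mouse as replicate block, 1590 peaks were called, 1332 higher and 258 lower, and all 384 stayed called. Of 133 named peaks, 123 kept their side of the threshold with the block and 10 passed it newly. None of the 108 called ones changed direction in any alternative run. Uncalled ones did: Foxp3 (0.14) was at -0.16 without mouse 3 and from -0.05 (without A of mouse 3) to 0.33 without 1 library, and under thinning Ifi204 (0.50) was at -0.03 and Cd4 (-0.25) at 0.06 (adjusted p = 1.0 at each changed sign). A pseudocount of 0.25 (491 calls), median-of-ratios scaling (356) and DESeq2 (467 in all, 373 higher) stayed within 1.5 times of the full count. At the depth of C of mouse 1, 1 read is 0.196 rppm, and thinning ended 101 of the 108 calls.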

Other observations

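Several of the elements called between C and A stood at different levels in populations B and D. At the Il2ra element that was lower in C, the means were 27.1 rppm in B and 17.8 rppm in D, beside 20.4, 21.1 and 19.6 rppm in C and 37.4 and 36.7 rppm in A. At the Ly6c1 element B had 16.1 and D 5.46 rppm, and D minus C was -0.89 (adjusted p = 0.000511 with limma). The element in intron 8 of Tnfrsf1b had 10.1 rppm in B, close to C (C minus B 0.11, adjusted p = 1.00), and 33.3 rppm in D, 1.52 above C (adjusted p = 1.57e-05). The Ifng element likewise stood at 3.19 rppm in B and 12.3 rppm in D, with C minus B at 0.15 (adjusted p = 1.00) and D minus C at 1.52 (adjusted p = 2.84e-05). The Farsb element had 1.74 rppm in B, near the A libraries, with C 1.19 above B (adjusted p = 0.20). These contrasts share libraries, so the values are set side by side only.

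Among lower elements not described in the report, 2 peaks on chromosome 9 near 4930428G15Rik and Mir467h had 24.3, 25.4 and 22.5 rppm in C, against 41.6 and 44.2 rppm in A, and 9.42, 9.56 and 8.82 rppm in C, against 19.1 and 18.4 rppm in A. Their changes were -0.81 ± 0.11 and -0.95 ± 0.13 (SE, adjusted p = 0.00849 and 0.00871 with limma). An exon 4 peak of Lipa, the lysosomal acid lipase, had 11.0, 12.0 and 12.2 rppm in C, against 24.8 and 22.1 rppm in A (-0.94 ± 0.13, adjusted p = 0.00812). None of these calls held without A of mouse 1 (0.0994 to 0.132) or without A of mouse 3 (0.0903 to 0.175).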
